A study of Homo sapiens with 12 samples.

Results

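The genes of cholesterol and fatty acid synthesis were followed in SJSA-1 cells, an established human osteosarcoma cell line, after silencing of RUNX2. The members were chosen by symbol and are 33 of the 59248 rows of the deposited tables. They comprise 18 enzymes that lead from acetyl-CoA to cholesterol (the sterol arm), 11 genes of fatty acid synthesis, elongation, desaturation and activation (the fatty acid arm), and 4 genes that regulate or carry sterols and were kept apart from both arms. The series compares 6 libraries from SJSA-1 cells that stably carry a scramble shRNA (shNC) with 6 libraries from cells that stably carry 1 shRNA against RUNX2 (sh1). Cells of both groups were infected with a lentivirus that also carries EGFP and puromycin resistance and were selected with puromycin as a population, and they grew in medium with newborn calf serum. The sources used here do not say whether the replicates were grown or infected separately. The p-values therefore weigh the group difference against the spread of these libraries only, and that spread may be technical.

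In the sterol arm, acetyl-CoA units are joined to mevalonate, mevalonate is converted to isoprenoid diphosphates, and these are joined and cyclised to lanosterol, which is then trimmed to cholesterol. In the fatty acid arm, acetyl-CoA is carboxylated to malonyl-CoA and built into palmitate, which elongases and desaturases convert to longer and unsaturated chains. Both arms are under the SREBP transcription factors, the products of SREBF1 and SREBF2, which are held in the endoplasmic reticulum by INSIG proteins when sterols are plentiful and are released to the nucleus when sterols run low. SREBP sites in promoters are often accompanied by CCAAT boxes, the site of the factor NF-Y. Growing tumour cells use these pathways to make membrane.

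Total gene counts ranged from 15328312 to 19992974 in shNC and from 11239638 to 16346022 in sh1. The lowest total was that of sh1 replicate 3, in which entries without an Ensembl identifier took 1.23% of the counts, against 0.468% to 0.576% in the other 11 libraries. This library also stood apart over all genes, since a chi-square of the counts, per gene, was 22.6 to 26.4 for its pairs with the other sh1 libraries and 2.65 to 9.40 for the pairs among those. Among the shNC pairs it was 4.13 to 23.6, the highest being that of replicates 1 and 4. Of 9 mesenchymal and osteoblast markers, VIM, SPARC, COL1A1 and CDH11 were over 1 CPM (counts scaled to library size) in every library, while COL1A2 and the osteoblast markers ALPL, IBSP, SP7 and BGLAP were under 1 CPM in every library. The summed level of the 9 ranged from 2817 to 2967 CPM in shNC and from 3522 to 4069 CPM in sh1. SPARC ranged from 1342 to 1555 CPM in shNC and from 1968 to 2589 CPM in sh1, while VIM ranged from 1293 to 1527 CPM and from 1162 to 1423 CPM. The part of these levels in the results was not tested. The 5 blood markers and the 3 hepatocyte markers were under 1 CPM in every library, and the summed level of the 4 adipocyte markers ranged from 0.518 to 1.635 CPM in shNC and from 0.196 to 0.7435 CPM in sh1. The summed level of the 5 epithelial markers ranged from 372 to 464.5 CPM in shNC and from 421 to 579 CPM in sh1 and came from the keratins KRT8 and KRT18, while EPCAM, CDH1 and KRT19 were under 1 CPM. The summed level of the 3 endothelial markers ranged from 1.74 to 4.96 CPM in shNC and from 2.57 to 5.23 CPM in sh1. RUNX2 was at 39.8 ± 4.31 CPM in shNC and at 24.6 ± 1.95 CPM in sh1 (SD, n = 6 each), and the groups did not overlap (log2 fold change -0.69, edgeR adjusted p = 4.61e-06). Part of the RUNX2 RNA thus remained in the sh1 cells.

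The sequences below show the promoter windows of the members that differed between the groups and have an entry in the RefSeq table (GRCh38.p14). Each runs 5′ to 3′ along the gene from 250 bases before its RefSeq start to 50 bases after it, and capitals mark CCAAT or its reverse complement ATTGG. FASN has no entry in that table.
FDPS promoter window (chr1:155308616-155308915, plus strand): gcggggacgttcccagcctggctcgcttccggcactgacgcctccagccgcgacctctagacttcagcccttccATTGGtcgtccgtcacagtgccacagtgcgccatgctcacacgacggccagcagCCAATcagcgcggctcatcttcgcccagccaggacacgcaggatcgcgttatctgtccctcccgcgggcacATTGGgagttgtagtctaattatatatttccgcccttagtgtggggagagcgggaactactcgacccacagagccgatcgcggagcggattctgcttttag
LSS promoter window (chr21:46228725-46229024, minus strand): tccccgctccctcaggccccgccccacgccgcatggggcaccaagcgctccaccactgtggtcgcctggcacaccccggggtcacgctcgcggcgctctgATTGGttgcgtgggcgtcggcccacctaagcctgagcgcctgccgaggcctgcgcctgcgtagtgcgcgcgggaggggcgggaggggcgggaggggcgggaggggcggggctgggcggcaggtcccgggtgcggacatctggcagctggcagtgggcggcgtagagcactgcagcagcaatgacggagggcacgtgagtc
ELOVL6 promoter window (chr4:110198566-110198865, minus strand): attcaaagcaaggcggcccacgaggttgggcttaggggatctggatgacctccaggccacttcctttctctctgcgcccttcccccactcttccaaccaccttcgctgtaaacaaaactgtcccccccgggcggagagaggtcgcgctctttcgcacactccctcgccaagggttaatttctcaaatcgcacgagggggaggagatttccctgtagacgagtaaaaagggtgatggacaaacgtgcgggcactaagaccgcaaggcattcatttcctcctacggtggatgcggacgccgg
INSIG1 promoter window (chr7:155297628-155297927, plus strand): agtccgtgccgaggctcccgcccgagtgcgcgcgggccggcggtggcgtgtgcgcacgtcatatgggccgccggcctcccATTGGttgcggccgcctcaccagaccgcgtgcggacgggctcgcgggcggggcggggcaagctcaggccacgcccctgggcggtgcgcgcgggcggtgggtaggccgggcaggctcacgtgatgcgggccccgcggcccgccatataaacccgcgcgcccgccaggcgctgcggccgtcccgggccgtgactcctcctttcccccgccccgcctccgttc
ACLY promoter window (chr17:41918973-41919272, minus strand): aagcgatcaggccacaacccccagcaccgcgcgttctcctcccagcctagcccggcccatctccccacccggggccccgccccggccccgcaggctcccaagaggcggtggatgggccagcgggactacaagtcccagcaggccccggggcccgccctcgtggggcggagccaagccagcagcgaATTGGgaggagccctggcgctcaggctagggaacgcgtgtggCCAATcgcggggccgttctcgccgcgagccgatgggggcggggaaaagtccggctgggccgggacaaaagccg
The windows of FDPS, LSS, INSIG1 and ACLY hold the CCAAT letters, at positions -176, -122 and -51 in FDPS, at -150 in LSS, at -170 in INSIG1 and at -65 and -23 in ACLY, counted back from the start. ACLY has another RefSeq start, from which the same letters lie at -136 and -94. The ELOVL6 window does not hold the CCAAT letters. Of the 29 members with at least 1 window, 24 had CCAAT on either strand, among them 13 of 15 sterol enzymes and 8 of 10 fatty acid genes, against 39.7% of the 27305 genes in the table. Genes with several start sites have several windows and more chances of a match.

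SREBF2 was the member whose window held the sterol element letters TCACCCCAC, searched on both strands, which 0.535% of the genes in the table hold. It is shown here with those letters in capitals.
SREBF2 promoter window (chr22:41832855-41833154, plus strand): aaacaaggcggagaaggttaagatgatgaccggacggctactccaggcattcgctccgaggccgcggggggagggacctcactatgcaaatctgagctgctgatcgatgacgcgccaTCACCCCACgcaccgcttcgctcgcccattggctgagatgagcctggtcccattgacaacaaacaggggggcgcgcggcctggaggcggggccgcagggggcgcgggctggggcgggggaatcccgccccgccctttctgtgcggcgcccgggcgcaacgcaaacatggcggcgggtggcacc
The E-box letters CACGTG were found in 4 of the 29 members (ELOVL5, INSIG1, LSS and SC5D), against 8.77% of all genes. Letters of the RUNX site were found as TGTGGT in 4 members (IDI1, SCD, MVD and LSS), against 15.6% of all genes, and as TGCGGT in 5 members (ACSS2, ELOVL5, ELOVL6, SC5D and SCD), against 8.67%. These matches describe the letters of the windows and were not tested.

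Per length, the members spanned a wide range of levels. On the FPKM scale, the highest levels in shNC were those of the stearoyl-CoA desaturase SCD (87.4 ± 13.7 FPKM), the ATP citrate lyase ACLY (71.0 ± 4.68 FPKM), the elongase ELOVL5 (48.75 ± 3.37 FPKM) and the fatty acid synthase FASN (31.2 ± 3.64 FPKM, SD, n = 6 each). The highest sterol enzyme was MSMO1 at 28.3 ± 4.58 FPKM, and its SD overlapped those of FASN and of HMGCS1 (23.8 ± 5.87 FPKM). The lowest members were the mitochondrial carboxylase ACACB at 0.383 ± 0.0506 FPKM and the sterol reductase TM7SF2 at 0.800 ± 0.160 FPKM. SREBF2 (23.8 ± 2.61 FPKM) lay above SREBF1 (3.65 ± 0.786 FPKM). All 33 members passed the filter on low counts.

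**Figure D1:**
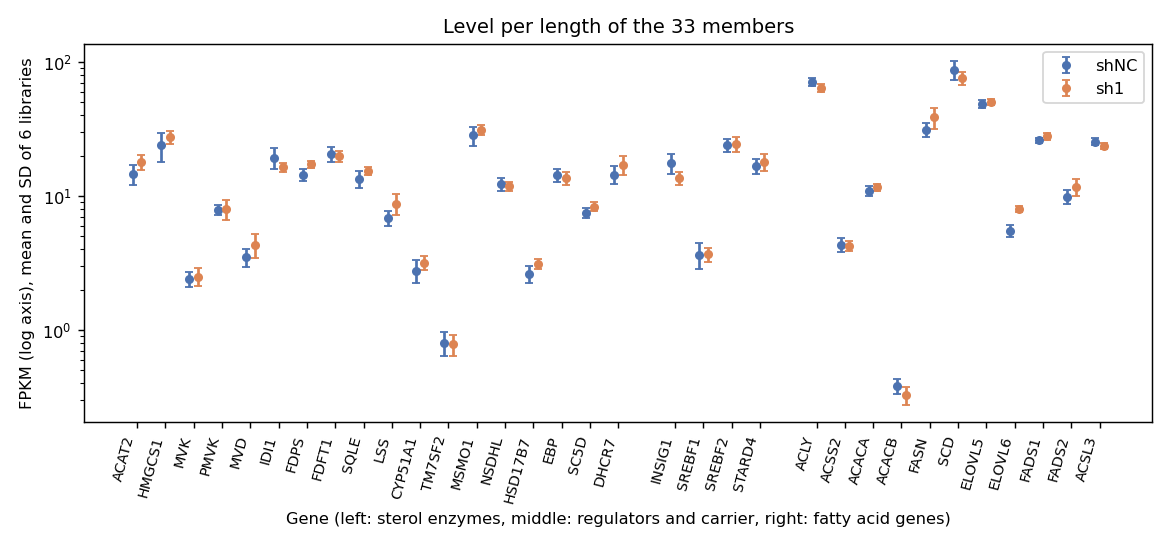
Level per length of the 33 members in FPKM on a log axis, with points for the mean and bars for the SD of 6 shNC libraries (blue) and 6 sh1 libraries (orange). SCD and ACLY are the highest members and ACACB and TM7SF2 the lowest in both groups.

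Of the 33 members, 4 were higher in sh1 (FDPS, LSS, FASN and ELOVL6), 2 were lower (INSIG1 and ACLY) and 27 did not pass an adjusted p of 0.05 over all genes tested. This is 18.2% of the members, against 26.1% of the 16489 genes tested that were called in either direction (12.8% higher and 13.3% lower). In the sterol arm 2 of 18 enzymes were called, both higher, and in the fatty acid arm 2 of 11 genes were higher and 1 was lower. The median log2 fold change, sh1 over shNC, was 0.16 over the sterol enzymes and 0.02 over the fatty acid genes, beside -0.0035 over all genes tested. No member changed by 2-fold, and the 95% intervals of 31 of the 33 fold changes lay within 1.5-fold in both directions, the others being those of ELOVL6 and INSIG1. Values are CPM after TMM normalization unless FPKM is named, and because the RNA is from bulk cells, fewer cells of a kind and less RNA per cell cannot be told apart.

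**Figure D2:**
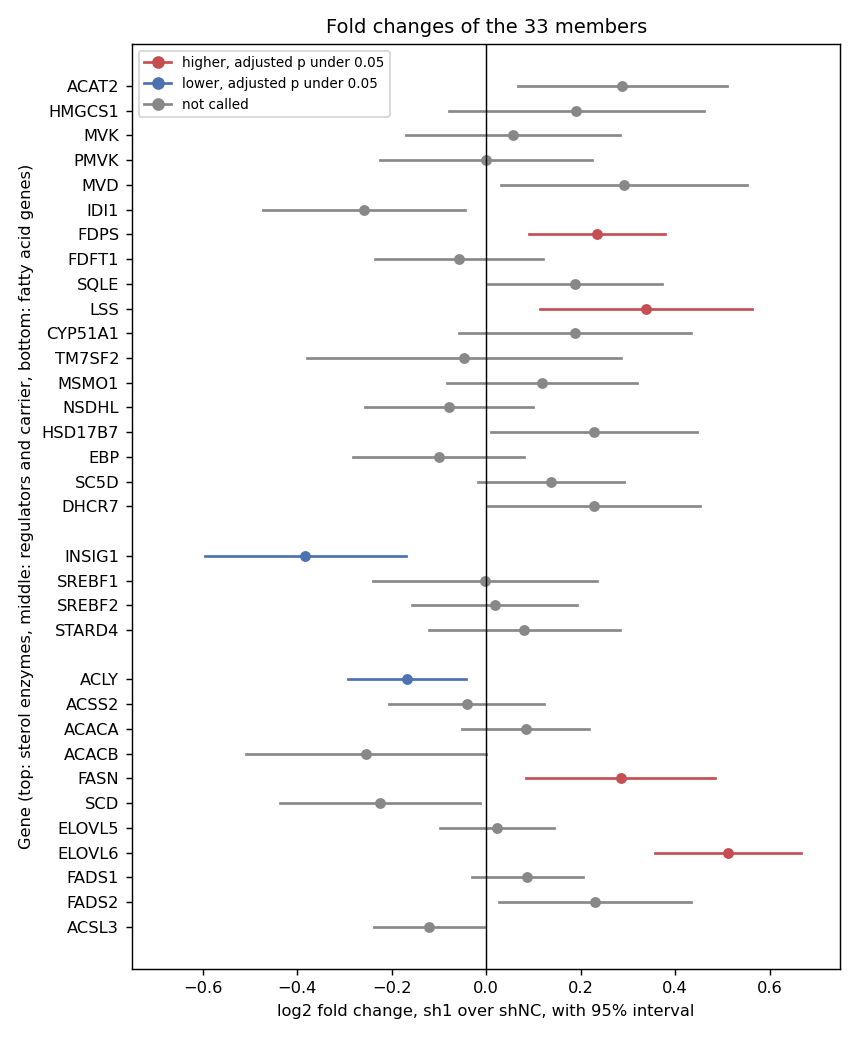
Log2 fold change of each member, sh1 over shNC, with its 95% interval (not adjusted for the number of genes). Members past an adjusted p of 0.05 are red where higher and blue where lower, and the others are grey. ELOVL6 lies farthest to the right at 0.51 and INSIG1 farthest to the left at -0.38.

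ELOVL6, the elongase that extends palmitate to stearate, had the largest fold change of the members. Its level ranged from 33.8 to 46.9 CPM in shNC (median 39.4) and from 52.3 to 61.0 CPM in sh1 (median 58.9). All 6 sh1 libraries lay above all 6 shNC libraries, and no other member had groups that did not overlap, which was so for 11.9% of the genes tested (5.84% with sh1 higher and 6.08% with sh1 lower). This gave a log2 fold change of 0.51 with a standard error of 0.074 (edgeR adjusted p = 6.65e-05), and an exact two-sided permutation test gave p = 0.0022, the smallest that 6 against 6 allow. ELOVL6 stayed past the threshold without any of the 12 libraries in turn. The gene lies on chromosome 4 from 110045846 to 110199199, minus strand (GRCh38). ELOVL5, which elongates polyunsaturated chains, was at 187.6 ± 16.01 CPM in shNC and at 190.7 ± 9.79 CPM in sh1 (SD, n = 6 each), and the 95% interval of its log2 fold change ran from -0.10 to 0.14.

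INSIG1, which holds the SREBP escort in the endoplasmic reticulum and is itself a target of SREBP, was lower in sh1. Its level ranged from 47.7 to 78.35 CPM in shNC (median 64.2) and from 42.3 to 56.8 CPM in sh1 (median 49.25). The groups overlapped, since shNC replicate 4 lay among the sh1 libraries, and 3 sh1 libraries lay below every shNC library. INSIG1 had a log2 fold change of -0.38 with a standard error of 0.10 (edgeR adjusted p = 0.00942), and it passed in all 12 fits that left out a library. With limma on unfiltered log2(FPKM + 1) values it did not pass (adjusted p = 0.087). The gene lies on chromosome 7 from 155297776 to 155310235, plus strand (GRCh38).

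The transcription factors themselves were not called. SREBF1 ranged from 23.6 to 39.6 CPM in shNC (median 28.4) and from 26.1 to 36.1 CPM in sh1 (median 28.3). SREBF2 ranged from 149.6 to 200.7 CPM in shNC (median 184.6) and from 148.7 to 220.6 CPM in sh1 (median 182.8). The groups overlapped for both genes. The 95% interval of the log2 fold change ran from -0.24 to 0.24 for SREBF1 and from -0.16 to 0.19 for SREBF2, so that a 1.5-fold change lay outside both intervals. The sign of the SREBF1 value turned with the scaling (-0.0026 with TMM and 0.01 with library totals). STARD4, a soluble sterol carrier, was at 95.9 ± 12.8 CPM in shNC and at 101.3 ± 14.2 CPM in sh1, with a log2 fold change of 0.08 (adjusted p = 0.57 from edgeR).

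Among the 7 enzymes from acetyl-CoA to farnesyl diphosphate, 1 was called. FDPS, which makes farnesyl diphosphate, ranged from 48.1 to 65.8 CPM in shNC (median 52.3) and from 58.15 to 69.5 CPM in sh1 (median 63.8). Its groups overlapped through shNC replicate 1, the highest shNC library. On the log2 scale FDPS was higher by 0.23 with a standard error of 0.069 (edgeR adjusted p = 0.0177), and it passed without any of the 12 libraries and under all 10 other settings tried. The gene lies on chromosome 1 from 155308748 to 155320666, plus strand (GRCh38), and overlaps RUSC1-AS1 on the opposite strand (5.67 CPM in shNC and 5.18 in sh1).

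HMGCS1, which makes HMG-CoA, the precursor of mevalonate, varied widely among the shNC libraries, with an SD of 30.3 CPM. It ranged from 87.8 to 168.2 CPM in shNC (median 106.0) and from 102.2 to 143.4 CPM in sh1 (median 131.9). shNC replicate 1 held the highest value of all 12 libraries and the groups overlapped. The log2 fold change was 0.19 (adjusted p = 0.29), and without shNC replicate 1 it was 0.34 (adjusted p = 0.0121, both from edgeR). HMGCS1 passed in only 1 of the 12 fits that left out a library and under 0 of the 10 other settings. The thiolase ACAT2, which joins acetyl-CoA units, stood just outside the threshold with a log2 fold change of 0.29 (adjusted p = 0.052), at 63.0 ± 11.6 CPM in shNC and 76.8 ± 9.43 CPM in sh1. It passed in 3 of the 12 fits that left out a library and under 6 of the 10 other settings. ACAT2 overlaps TCP1 on the opposite strand (491.6 CPM in shNC and 445.1 CPM in sh1). Mevalonate diphosphate decarboxylase, MVD, had a log2 fold change of 0.29 (adjusted p = 0.092) and IDI1, which isomerises isopentenyl diphosphate, one of -0.26 (adjusted p = 0.069). The IDI1 value was -0.15 without shNC replicate 1 (adjusted p = 0.159), and it passed without shNC replicate 4 (-0.31, adjusted p = 0.0166) and in the edgeR fit without a filter (adjusted p = 0.0182). The kinases MVK (0.06) and PMVK (-0.0009, with a sign that turned with the scaling) had 95% intervals from -0.17 to 0.28 and from -0.23 to 0.22.

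Of the 3 enzymes that lead to lanosterol, LSS was called. LSS, lanosterol synthase, ranged from 42.5 to 59.3 CPM in shNC (median 48.8) and from 47.1 to 82.5 CPM in sh1 (median 62.1). The groups overlapped through sh1 replicate 3, and the other 5 sh1 libraries lay above every shNC library. LSS was higher by 0.34 on the log2 scale with a standard error of 0.11 (edgeR adjusted p = 0.0261), and it passed in 10 of the 12 fits that left out a library, not without shNC replicate 2 (adjusted p = 0.0559) or sh1 replicate 1 (adjusted p = 0.0554). It did not pass with limma on log2(FPKM + 0.1) (adjusted p = 0.0558) or on log2(FPKM + 1) without a filter (adjusted p = 0.125). The gene lies on chromosome 21 from 46188141 to 46228824, minus strand (GRCh38). SQLE, squalene epoxidase, ranged from 45.8 to 73.4 CPM in shNC (median 57.0) and from 58.1 to 70.3 CPM in sh1 (median 67.0), and the highest value was again that of shNC replicate 1. Its log2 fold change of 0.19 was not called (adjusted p = 0.12) and passed without shNC replicate 1 (0.27, adjusted p = 0.0137). SQLE passed in only 1 of the 12 fits that left out a library and under 0 of the 10 other settings. Squalene synthase, FDFT1, had a log2 fold change of -0.06 with a 95% interval from -0.24 to 0.12.

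None of the 8 enzymes between lanosterol and cholesterol was called, and their log2 fold changes ranged from -0.10 to 0.23 with a median of 0.13. The highest were those of HSD17B7, a keto reductase (0.23, adjusted p = 0.11), and of DHCR7, the reductase of the last step (0.23, adjusted p = 0.13). CYP51A1, the lanosterol demethylase (0.19), MSMO1, which oxidises the methyl groups of lanosterol (0.12), and the desaturase SC5D (0.14) had values of the same sign. CYP51A1 passed only without shNC replicate 4 (0.29, adjusted p = 0.0431) and was at 0.14 without shNC replicate 1. Its gene overlaps AKAP9 on the opposite strand, which was at 179.2 CPM in shNC and at 179.6 CPM in sh1. CYP51A1 itself was at 9.98 and 11.4 CPM. MSMO1 ran from 0.07 without shNC replicate 2 to 0.21 without shNC replicate 1 (adjusted p = 0.0591). The dehydrogenase NSDHL (-0.08), the isomerase EBP (-0.10) and TM7SF2 (-0.05) had values of the opposite sign. Pseudogenes named for HSD17B7 held counts equal to 22.3% of its own, and those named for CYP51A1 counts equal to 7.98%, so the counts of these genes are uncertain where copies share reads. TM7SF2 had 26 to 72 counts per library, the lowest of the sterol arm.

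In the fatty acid arm, FASN, which builds palmitate from malonyl-CoA, was higher in sh1. It ranged from 262.6 to 347.2 CPM in shNC (median 284.6) and from 312.9 to 474.8 CPM in sh1 (median 329.5). The groups overlapped, and the values of sh1 replicates 1 and 2 (474.8 and 385.3 CPM) lay above every shNC library. FASN was higher by 0.29 on the log2 scale with a standard error of 0.095 (edgeR adjusted p = 0.0342). It passed in 7 of the 12 fits that left out a library. Its call was lost without shNC replicates 2, 3 or 5 or sh1 replicates 1 or 2, with adjusted p of at most 0.0682, and the log2 fold change was 0.20 without sh1 replicate 1. It was also lost with limma on FPKM (adjusted p from 0.0585 to 0.153 over 3 settings). The gene lies on chromosome 17 from 82078338 to 82098294, minus strand (GRCh38).

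ACLY, which makes cytosolic acetyl-CoA from citrate for both arms, was the other member that was lower. It ranged from 337.7 to 414.3 CPM in shNC (median 376.1) and from 302.4 to 368.4 CPM in sh1 (median 332.4). The groups overlapped, with 4 sh1 libraries below every shNC library. Its log2 fold change was -0.17 with a standard error of 0.059 (edgeR adjusted p = 0.0445). The call was kept under only 3 of the 10 other settings. It was lost with RLE scaling (adjusted p = 0.0513), library totals (0.0503), upper quartile scaling (0.0607) and a replicate block (0.0523). With limma on FPKM it was lost too (0.0655 to 0.12 over 3 settings). It was also lost in 8 of the 12 fits that left out a library (without shNC replicates 1, 5 or 6 or sh1 replicates 2, 3, 4, 5 or 6, adjusted p at most 0.112). ACSS2, which makes acetyl-CoA from acetate, was at 23.5 ± 2.42 CPM in shNC and at 22.85 ± 1.84 CPM in sh1. The gene of ACLY lies on chromosome 17 from 41866917 to 41930542, minus strand (GRCh38).

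**Figure D3:**
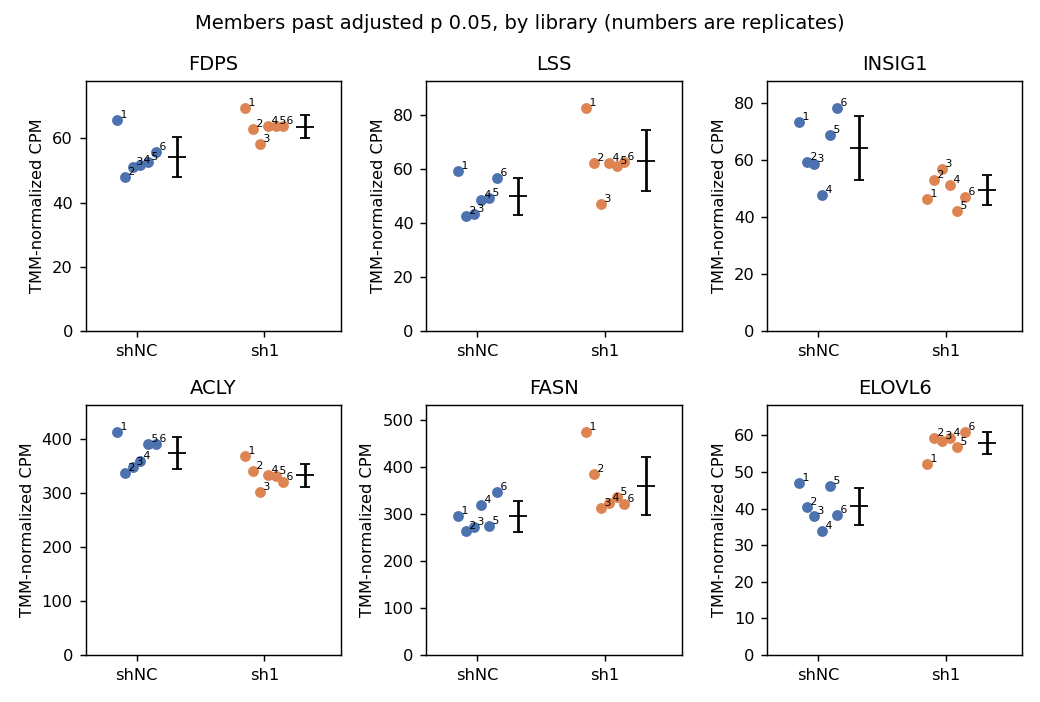
TMM-normalized CPM of the 6 members that were called, with 1 point per library (the number is the replicate), and each group's mean and SD drawn as a bar (n = 6). The groups do not overlap for ELOVL6 and overlap for the other 5 genes.

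SCD, which introduces the double bond of oleate, was the most abundant member and was not called. It ranged from 352.3 to 606.7 CPM in shNC (median 463.8) and from 321.3 to 454.4 CPM in sh1 (median 423.4). The groups overlapped, with shNC replicate 1 the highest and sh1 replicate 3 the lowest of the 12 libraries. Its log2 fold change was -0.22 (adjusted p = 0.11 from edgeR) and ran from -0.29 without shNC replicate 2, where it passed (adjusted p = 0.0251), to -0.14 without shNC replicate 1 (adjusted p = 0.262). Without sh1 replicate 3 it was -0.16 (adjusted p = 0.242), and SCD was called lower in the edgeR fit without a filter (adjusted p = 0.0331). The desaturases of polyunsaturated fatty acids, FADS1 (0.09, adjusted p = 0.27) and FADS2 (0.23, adjusted p = 0.087), overlap each other on opposite strands, and reads from the shared stretch cannot be told apart because the libraries are not stranded. FADS2 also overlaps FEN1 on the same strand (182.4 CPM in shNC and 157.3 CPM in sh1). The cytosolic carboxylase ACACA had a log2 fold change of 0.08, and the mitochondrial form ACACB one of -0.25 (adjusted p = 0.13). ACACB overlaps UNG on the same strand, which was at 62.8 CPM in shNC and at 52.3 CPM in sh1 beside 5.61 and 4.71 CPM for ACACB. ACSL3, which activates fatty acids as acyl-CoA, had a log2 fold change of -0.12 (adjusted p = 0.12).

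The members varied together between libraries of 1 group. To show this, log2 CPM was averaged over the genes of an arm and set against the shNC mean. The sterol arm was at 0.24 in shNC replicate 1, at 0.06 and 0.08 in replicates 5 and 6 and between -0.16 and -0.11 in replicates 2, 3 and 4. In sh1 it was at 0.27 in replicate 1, at -0.12 in replicate 3 and between 0.08 and 0.16 in the other 4. The groups overlapped, with means of 0.00 ± 0.15 in shNC and 0.11 ± 0.13 in sh1 (SD, n = 6 each). The fatty acid arm was also highest in replicate 1 of each group (0.16 in shNC and 0.16 in sh1) and lowest in shNC replicate 2 (-0.15) and sh1 replicate 3 (-0.11), with means of 0.00 ± 0.098 in shNC and 0.039 ± 0.090 in sh1. The median over all genes tested lay between -0.0073 and 0.0122 in each of the 12 libraries. TMM normalization keeps this median near 0, and it is a median beside means of few genes, so it is no control for the arm levels.

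**Figure D4:**
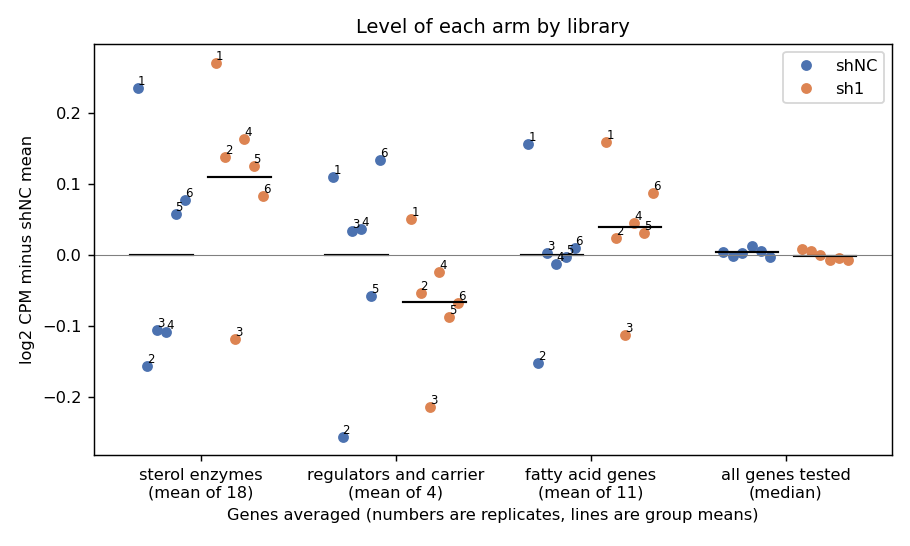
Mean log2 CPM of each arm and of the 4 regulators and carrier in each library, relative to the shNC mean, beside the median over all genes tested. Points are libraries (the number is the replicate) and black lines are group means. shNC replicate 1 and sh1 replicate 1 are the highest and sh1 replicate 3 the lowest of its group in both arms.

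Gene by gene, shNC replicate 1 was the highest shNC library in 13 of 18 sterol enzymes and in 8 of 11 fatty acid genes, while it was the highest in 24.0% of all genes tested. sh1 replicate 3 was the lowest sh1 library in 17 of 18 sterol enzymes, the exception being CYP51A1 and the lowest there sh1 replicate 6, and in 7 of 11 fatty acid genes, against 23.4% of all genes tested. sh1 replicate 3 was also the library of the lowest total count, and the part of its depth or RNA quality in these values was not tested. The median SD of log2 CPM between the shNC libraries was 0.22 over the sterol enzymes and 0.15 over the fatty acid genes, beside 0.13 over the 12632 genes with a mean CPM at least that of the lowest member. In sh1 it was 0.17, 0.096 and 0.13, and without sh1 replicate 3 it was 0.11, 0.087 and 0.11. Without shNC replicate 1 the shNC values were 0.17, 0.16 and 0.12.

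The sterol arm minus the fatty acid arm, a difference of the 2 mean log2 levels in each library, ranged from -0.11 to 0.08 in shNC and from -0.0050 to 0.12 in sh1. The groups overlapped, with means of 0.00 ± 0.084 and 0.071 ± 0.059 (SD, n = 6 each). In sh1 the values lay between 0.094 and 0.12 in replicates 1, 2, 4 and 5 and at -0.0048 and -0.0050 in replicates 3 and 6. No p is given for these arm means, since the members were chosen with results of these data known.

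The number of members called turned on which libraries were in the fit. Without shNC replicate 1, 9 members were higher and 1 was lower (23.8% of all genes tested were called in that fit), and the added ones were ACAT2, HMGCS1, SQLE, HSD17B7 and FADS2. Without sh1 replicate 3, 7 were higher and 1 was lower (24.9% of all genes), with ACAT2, MVD and FADS2 added. Without shNC replicate 2, 2 were higher and 3 lower (21.8% of all genes), and without sh1 replicate 1, 2 were higher and 2 lower (23.5% of all genes). FDPS and ELOVL6 as higher and INSIG1 as lower passed in all 12 such fits. Of the 27 members that were not called, 18 passed under none of the settings tried.

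**Figure D5:**
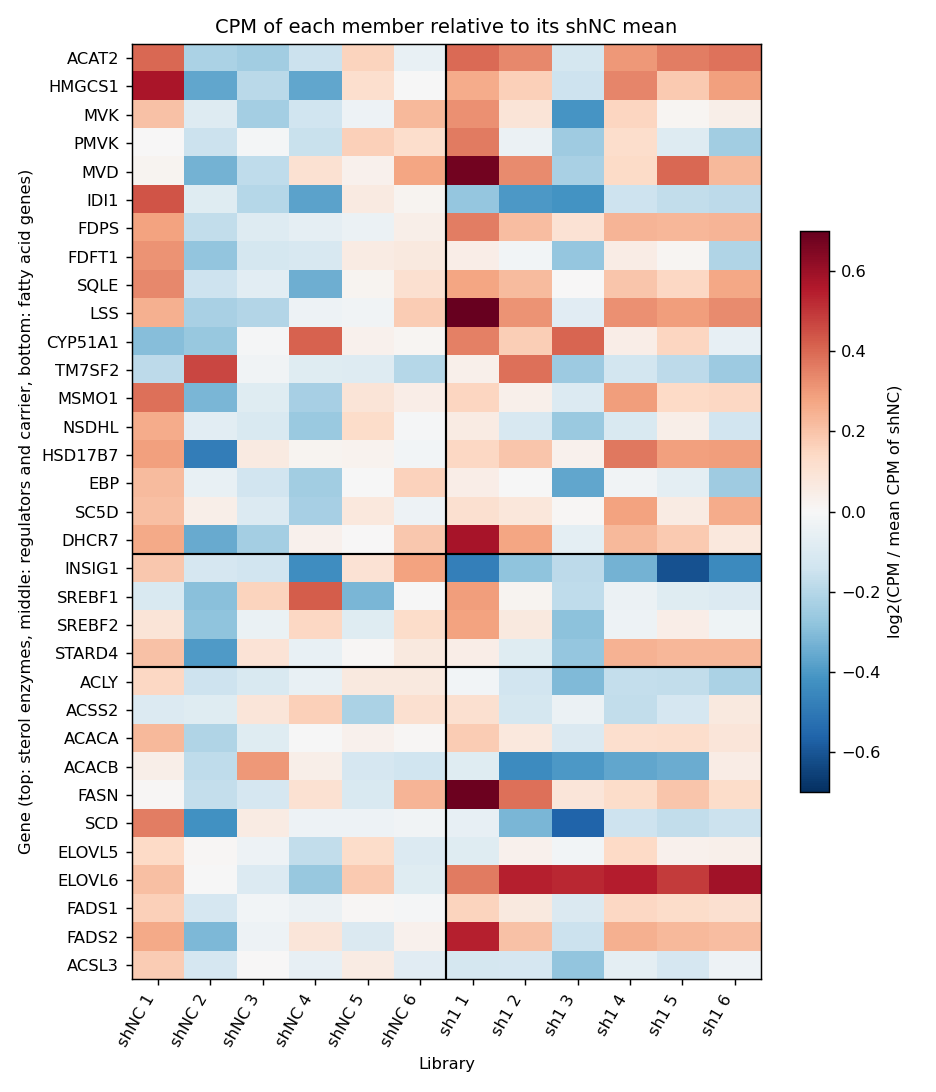
Log2 ratio of each member's CPM to its mean over the shNC libraries, with genes in rows (sterol enzymes, then regulators and carrier, then fatty acid genes) and libraries in columns. Red is above and blue below the shNC mean, and colours end at 0.7. The column of shNC replicate 1 is mostly red, that of sh1 replicate 3 mostly blue, and the ELOVL6 row is red in every sh1 library.

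Genes that process or surround the SREBP factors were counted from further lists. Of 9 tested genes listed for SREBP processing, 2 were higher and 2 lower (44.4% called, beside 26.1% of all genes tested). The median log2 fold change was 0.01. The SREBP escort SCAP (0.23, adjusted p = 0.0288) and the protease MBTPS1, which cuts SREBP in the Golgi (0.16, adjusted p = 0.0137), were higher. UBXN8 (-0.26, adjusted p = 0.0287) and ERLIN1, a membrane protein of the endoplasmic reticulum (-0.35, adjusted p = 3.05e-05, all from edgeR), were lower. UBXN8 was on this list, but it is not an established gene of SREBP processing. INSIG2, the paralog of INSIG1, stood just outside the threshold in the direction opposite to INSIG1 (0.33, adjusted p = 0.0502 from edgeR, with a mean of 48.7 CPM in shNC and 61.15 CPM in sh1). SCAP and INSIG2 were singled out after their values were seen.

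The isoprenoid branch takes farnesyl diphosphate away from sterol synthesis. Of its 11 tested genes, none was higher and 3 were lower (27.3% called, beside 26.1% of all genes tested, median -0.15). These were ICMT, which methylates prenylated proteins (-0.26), NUS1, a subunit of the dolichol-making enzyme (-0.24), and COQ2, which attaches the isoprenoid chain of coenzyme Q (-0.34). Of 14 tested genes of sterol transport, esterification and efflux, 2 were higher and 4 lower (42.9% called, median -0.11). SCARB1, a receptor for high-density lipoprotein, was at 31.99 ± 1.90 CPM in shNC and at 43.4 ± 3.73 CPM in sh1 (SD, n = 6 each), higher by 0.44 on the log2 scale (edgeR adjusted p = 7.93e-05). GRAMD1B, which carries sterol from the plasma membrane to the endoplasmic reticulum, was at 144.4 ± 11.5 CPM in shNC and at 105.4 ± 2.78 CPM in sh1 (log2 fold change -0.45, edgeR adjusted p = 6.39e-06). STARD3NL (-0.26) was among the lower genes.

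Of 15 tested genes of elongation, desaturation and activation outside the members, 2 were higher, FADS3 (0.34) and ACSL4 (0.15), and 1 was lower, ACSL1 (-0.32). Of 9 tested genes that supply acetyl-CoA and NADPH, 2 were higher and 4 lower (66.7% called). CS, the mitochondrial citrate synthase (-0.29), PGD of the pentose phosphate pathway (-0.35) and IDH1, a cytosolic source of NADPH (-0.32), were lower. The 2 higher genes were SLC25A1 (0.36, adjusted p = 0.00946) and ME1 (0.22, adjusted p = 0.0378, both from edgeR), named after their values were seen. Over all 94 tested genes of these and the further lipid lists, 14 were higher and 18 lower, which is 34.0% beside 26.1% of all genes tested, and the lists describe these genes without a test of the list.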

How the data were processed

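Bulk RNA-seq was measured in 12 libraries, 6 shNC and 6 sh1, grouped by their titles. The authors trimmed the reads, aligned them with HISAT2 to GRCh38 and deposited raw counts per gene from featureCounts (the sources used here do not give the tool versions). The authors also deposited FPKM values made from those counts, which were used for levels between genes and for limma alternatives. A deposited table of size-factor-normalized counts was not used. Entries without an Ensembl identifier were tested as the other rows are when they passed the filter, and their share of counts is given above.

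Counts were fitted with edgeR 4.0.16 (R 4.3.3) by the quasi-likelihood test after TMM normalization and filterByExpr, with group as the only term, and p-values were adjusted by Benjamini-Hochberg over the 16489 genes tested, with a threshold of 0.05. Adjusted p-values in the text are from this fit unless another tool is named. Standard errors were derived from the fold change and its F statistic. Single values were compared by exact two-sided permutation tests. Arm levels used log2 CPM with a prior count of 2. In simulated data for this comparison (16314 genes fitted), 54 of 65 genes changed by 1.5-fold, 65 of 66 changed by 2-fold and 62 of 62 changed by 4-fold were called, beside 7 of 16121 unchanged genes. The simulation gave every gene the same dispersion and changed few genes. In shNC the sterol enzymes spread more (median SD 0.22) than genes of at least the lowest member's mean level (0.13). The simulated shares may therefore not hold for the members. No replicate libraries held identical counts (30 pairs, chi-square per gene from 2.65 to 26.4).

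Alternatives were RLE, library total and upper quartile scaling, no filter, a minimum of 10 counts in every library, DESeq2 1.42.0, limma 3.58.1 on log2(FPKM + 1) with and without the filter and on log2(FPKM + 0.1), a replicate block, and leaving out each library. A fold change on the log2(FPKM + pseudocount) scale understates the change of low genes. The members, the further lists and the motifs were chosen with earlier results of these data known. All members are named, and of each further list up to 3 tested genes with the smallest p. SCAP, INSIG2, SLC25A1 and ME1 were named outside this rule. Some genes of these pathways are not reported here. Gene positions are from GENCODE on GRCh38. Of the members, 14 overlap another tested gene, 12 of them one on the opposite strand, and the library kit does not mark strand.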

Additional observations from a re-analysis of the deposited data

Results flagged for a closer look

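In 122 groups of 6 libraries (the CPM of the members, RUNX2 and the genes named by rule from the further lists, and the mean levels of the 2 arms and of the regulators and carrier), the gap between the farthest library and its nearest neighbour was divided by the range of the group and set against Dixon's 95% limit. In independent groups chance would put about 1 in 20 past this limit, or 6.1 groups, and 10 were found. These groups are not independent, since the members vary together between libraries and the arm levels are means of the same members. The further genes were also named for their small p in these data. The 10 found thus cannot be weighed against 6.1.

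Among the members, the thiolase ACAT2 was at 57.88 CPM in sh1 replicate 3, with the other sh1 libraries between 77.9 and 82.93 CPM. FADS1 was at 249.3 CPM in the same library, with the others between 280.7 and 298.3 CPM. TM7SF2 was at 3.789 CPM in shNC replicate 2, with the others between 2.389 and 2.703 CPM.

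Among the further genes, ETFDH of the electron transfer chain of fatty acid oxidation was at 14.93 CPM in sh1 replicate 3 (others 18.95 to 21.25 CPM). In sh1 replicate 1, the lipoprotein receptor SCARB1 was at 50.78 CPM (others 40.6 to 43.4 CPM) and the carnitine transferase CPT2 at 14.51 CPM (others 11.02 to 11.96 CPM). In the same library NUS1 was at 110.0 CPM (others 122.7 to 129.8 CPM) and STARD3NL at 38.56 CPM (others 43.73 to 45.12 CPM). PGD was at 121.1 CPM in sh1 replicate 6 (others 137.1 to 142.9 CPM), and MLX at 64.28 CPM in shNC replicate 4 (others 57.77 to 58.69 CPM). What set these libraries apart was not tested.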

How the results depend on the processing

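Of the 33 members, 4 were higher and 2 lower as reported, and under RLE, library total and upper quartile scaling 5 were higher and 1 was lower, with 0 lower in the fatty acid arm. Without a filter, 6 members were higher, 3 in each arm, and 4 were lower, 1 of them in the sterol arm and 2 in the fatty acid arm. With limma on log2(FPKM + 1), 3 members were higher and 1 lower, and the fatty acid arm had 1 higher and 0 lower. With limma on log2(FPKM + 0.1), 2 members were higher and 1 lower, with 1 higher in the sterol arm and 1 higher and 0 lower in the fatty acid arm. With limma on the unfiltered log2(FPKM + 1) values, 2 members were higher and 0 lower, with 1 higher in each arm, 0 lower in the fatty acid arm and 0 lower among the regulators. Over all genes, 2108 were called higher and 2194 lower as reported. RLE, library total and upper quartile scaling each called more genes higher and fewer lower. Without a filter fewer genes were called in each direction, but more members. With limma on FPKM fewer genes were called lower under all 3 settings, and the unfiltered fit called the fewest in each direction. The causes of these moves were not tested. A minimum of 10 counts in every library and DESeq2 gave 2 lower members each, with 4 and 5 higher. Over all genes, that minimum gave fewer calls in each direction and DESeq2 more.

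Leaving out 1 library gave 2 to 9 higher and 1 to 3 lower members. In the sterol arm this was 1 to 6 higher and 0 to 1 lower enzymes. In the fatty acid arm it was 1 to 3 higher and 0 to 2 lower genes. Without shNC replicates 1 or 2 or sh1 replicates 1 or 3, 21.8% to 24.9% of all genes tested were called. Over the 12 fits that left out 1 library, the median log2 fold change ran from 0.12 to 0.20 over the sterol enzymes. It ran from 0.0038 to 0.0606 over the fatty acid genes. Over the 4 regulators and carrier it ran from -0.04 to 0.07.

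Values near 0 turned sign. PMVK was at 0.0045 with RLE, 0.0157 with library totals and 0.0096 with upper quartile scaling. SREBF1 was at 0.0034, 0.0118 and 0.0080 under these, at 0.0176 with limma on log2(FPKM + 1) with and without the filter, and at 0.0252 with log2(FPKM + 0.1). Leaving out 1 library gave ranges across 0, from -0.0749 to 0.0532 for PMVK, from -0.0584 to 0.1079 for SREBF1, from -0.1443 to 0.0805 for TM7SF2, from -0.0285 to 0.0817 for SREBF2, from -0.0727 to 0.0038 for ACSS2 and from -0.0972 to 0.0134 for FDFT1. None of these 6 genes was called under any setting.

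Replicate numbers are shared between the groups. Over all genes tested, the deviations of same-numbered libraries had correlations from -0.1618 to 0.0334 over the 6 pairs. No shNC library correlated best with its own number. Such correlations cannot exclude a shared culture or processing, and replicate 1 was the highest library of each group in both arms. With a replicate block, 6 members were higher and 1 lower, with 0 lower in the fatty acid arm and SREBF1 at 0.0106. Depth limits mainly TM7SF2 and ACACB, with at least 26 and 48 counts per library.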

Other observations

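Genes that use the fatty acids made were counted in the same fit. Of 13 tested genes of glycerolipid synthesis, 3 were higher in sh1 and 2 lower (38.5% called, beside 26.1% of all genes tested). The median log2 fold change was 0.08. GPAT3, an acyltransferase of the endoplasmic reticulum that starts glycerolipid synthesis, was at 124.5 ± 10.05 CPM in shNC and at 65.5 ± 9.04 CPM in sh1 (SD, n = 6 each), with a fitted log2 fold change of -0.93 (edgeR adjusted p = 2.64e-07). GPAM, the mitochondrial enzyme of the same step, moved the other way, from 34.9 ± 1.91 to 41.3 ± 2.32 CPM (0.24, adjusted p = 0.00504 from edgeR). The lipid droplet protein PLIN3 was also higher (0.31, adjusted p = 0.00425 from edgeR).

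Of 18 tested genes of fatty acid oxidation, 3 were higher and 1 lower (22.2% called, beside 26.1% of all genes tested, median 0.07). CPT2, which re-forms acyl-CoA inside mitochondria (0.41), and ETFDH (0.29) were higher, and the medium-chain dehydrogenase ACADM was lower (-0.22). Of 5 tested genes of the LXR and ChREBP factors, MLX, the partner of ChREBP, was lower (-0.15, adjusted p = 0.0397 from edgeR), while NR1H2 (-0.06) and RXRA (0.07) were not called.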
